A study of Homo sapiens with 24 samples.

Results

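The 10 human globin genes were followed here in 2 acute myeloid leukaemia (AML) cell lines given the DNA-demethylating drug decitabine (DAC). The members were taken by gene symbol: HBE1, HBG1, HBG2, HBD and HBB of the beta cluster on chromosome 11, and HBZ, HBM, HBA1, HBA2 and HBQ1 of the alpha cluster on chromosome 16. They are 10 of the 52994 genes whose transcripts could be named, and 28 of their 34 annotated transcripts are listed in the tables. RNA was sequenced from UCSD-AML1 and ELF-153 cells, each untreated or given 100 nM DAC on 4 days, at 96 h and at 144 h. All groups, the untreated ones included, grew in RPMI medium with 20% serum and 5 ng/ml GM-CSF. Each of the 8 groups has 3 libraries labelled technical triplicates, 24 in all. With technical repeats of a single line, p-values cover the variation among these libraries, which may be technical, and not that among separate cultures or patients.

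Haemoglobin is a tetramer of 2 alpha-type and 2 beta-type chains around haem. Each cluster lists its genes in the order in which they are used in development: epsilon (HBE1) and zeta (HBZ) in the embryo, the gamma genes (HBG1, HBG2) in the fetus, delta (HBD) and beta (HBB) after birth, and alpha (HBA1, HBA2) in both fetus and adult. A distant enhancer, the locus control region, serves the beta cluster, and repressors such as BCL11A together with DNA methylation keep the gamma genes silent in adult red cells. DAC is a cytidine analogue that traps DNA methyltransferases as DNA is copied, and it is known as an inducer of fetal haemoglobin.

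Near-identical copies may limit which members can be read in these tables. In the GENCODE 29 transcripts, the coding sequences of HBG1 and HBG2 (441 bases without the stop codon) differ at 2 positions, C227T and C410G, where the base of HBG1 comes first and positions count from the A of the start codon; they are 99.55% identical. The coding sequences of HBA1 and HBA2 (426 bases) have 0 differences. The stretch around the second gamma difference is shown, coding bases 380 to 439 with that base in capitals, and the first 60 coding bases of the alpha pair, where no letter differs.
HBG1: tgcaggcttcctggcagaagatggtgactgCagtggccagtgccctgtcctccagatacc
HBG2: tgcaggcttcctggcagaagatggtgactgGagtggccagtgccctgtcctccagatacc
HBA1: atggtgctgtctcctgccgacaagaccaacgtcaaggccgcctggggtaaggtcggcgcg
HBA2: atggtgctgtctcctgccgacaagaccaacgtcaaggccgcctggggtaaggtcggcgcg

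A 100-base window placed on the main HBA1 transcript was found in no other gene for 20.3% of positions, and on the main HBA2 transcript for 20.1%. The share was 61.0% for the HBG1 transcript, 43.1% for the main HBG2 transcript and 100.0% for HBQ1, which has no close copy. Overlap with other listed transcripts on the same strand differed as well. The main HBG2 transcript has 0 bases of its own, while all 779 bases of the HBG1 transcript are its own. The main HBA1 and HBA2 transcripts have 18 and 14 such bases. The main HBM transcript, with a window share of 100.0%, has 119. HBG2 had 0 reads in all 24 libraries, HBA1 26 reads over the 12 libraries at 96 h and 24 at 144 h, HBA2 1 and 9, and HBM 4 and 14. The sources used here do not say how a read that matches several transcripts was counted. A value for HBG1 may therefore hold, or lack, reads of HBG2. Low values of the alpha genes cannot be told apart from reads lost to their copy or to overlapping transcripts.

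Values are scaled reads, reads per gene divided by the size factor the authors gave each library. Changes are on the log2(scaled reads + 1) scale, which understates the change of low genes, and are tested with limma over all genes; a gene is called at a Benjamini-Hochberg adjusted p under 0.05. The 2 harvests were scaled separately and are set side by side without a test. Because reads shared by transcripts or copies may be lost, levels are not compared between genes. At each harvest 6 of the 10 members reached 10 scaled reads in at least 3 libraries and were tested: HBE1, HBG1, HBD, HBB, HBZ and HBQ1. HBE1, HBG1, HBB and HBZ passed this minimum only through treated libraries, so their calls were in part fixed by the filter. HBE1 at 96 h and HBZ at 144 h passed it only through treated ELF-153. HBD and HBQ1 passed it in the untreated libraries alone.

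Depth was 13.15 to 28.53 Mreads (mega-reads assigned to transcripts) per library, and mitochondrial ribosomal RNA took 13.1% to 63.8% of them. In ELF-153 every treated library had a higher share (37.3% to 49.8% at 96 h, 42.8% to 53.6% at 144 h) than every untreated one (13.1% to 35.0% and 16.6% to 38.2%). In UCSD-AML1 it was 61.7% to 63.8% with the drug against 49.3% to 51.3% at 96 h, with overlap at 144 h (38.7% to 58.4% against 44.5% to 52.1%). Its part in the results was not tested beyond a fit with the share as a covariate. Of 12 myeloid and progenitor markers, 9 to 12 had reads in each group, with MPO at 0 in 5 of 8 groups and FLT3 at 0 in the UCSD-AML1 groups. All 6 megakaryocyte markers (PF4, PPBP, GP9, ITGA2B, ITGB3, TUBB1) had reads in every group. At 96 h their sum per UCSD-AML1 library was 104000 to 133000 scaled reads with DAC, against 18800 to 22700 without, and per ELF-153 library 10700 to 16400 against 546 to 717. At 144 h the sums were 98400 to 112000 against 21600 to 23400, and 26900 to 36800 against 570 to 607. The 4 T-cell markers in the tables gave at 96 h sums of 663 to 1010 with DAC against 41.0 to 49.3 (UCSD-AML1, with CD3E at 0 in the treated libraries) and of 390 to 449 against 147 to 160 (ELF-153). At 144 h these sums were 620 to 724 against 51.3 to 67.2, and 405 to 550 against 153 to 187. B-cell marker sums were lower with DAC in UCSD-AML1 (115 to 156 against 333 to 359 at 96 h, 62.1 to 122 against 351 to 376 at 144 h) and in ELF-153 (80.2 to 115 against 141 to 227, 61.5 to 76.8 against 149 to 282), with MS4A1 at 0 in all groups. Myeloid sums were lower in UCSD-AML1 (4020 to 4160 against 7440 to 7910, and 2650 to 2780 against 5380 to 6720). In ELF-153 they overlapped (5360 to 5750 against 4190 to 5530, and 5000 to 5680 against 4400 to 5070). Fibroblast marker sums were low and higher with DAC. At 96 h they were 8.99 to 50.2 against 2.36 to 3.15 in UCSD-AML1 and 47.9 to 50.2 against 0 to 8.19 in ELF-153. At 144 h they were 26.9 to 55.2 against 1.19 to 4.42, and 35.8 to 59.3 against 1.45 to 7.11. The part of these markers in the globin results was not tested. Epithelial markers summed to at most 3.89 in any library. In bulk RNA, more cells that make globin RNA and more globin RNA per cell cannot be told apart.

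Under DAC, 5 of the 6 tested globin genes rose in UCSD-AML1 at 96 h, where 19.7% of all 18799 genes tested were called higher and 39.2% higher or lower. ELF-153 at 96 h also gave 5 of 6, against 20.1% higher and 32.7% in either direction. At 144 h the counts were 5 of 6 in UCSD-AML1, against 20% higher and 46.1% in either direction of 18293 genes, and 6 of 6 in ELF-153, against 20.4% and 38.4%. Since 4 of the 6 were tested only because treated libraries held reads, these counts are a description. The median log2 change of all tested genes was -0.02 and 0.16 at 96 h (UCSD-AML1 and ELF-153) and -0.12 and 0.11 at 144 h. The member not called in UCSD-AML1 was HBD at both harvests, and the one not called in ELF-153 at 96 h was HBQ1.

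**Figure D1:**
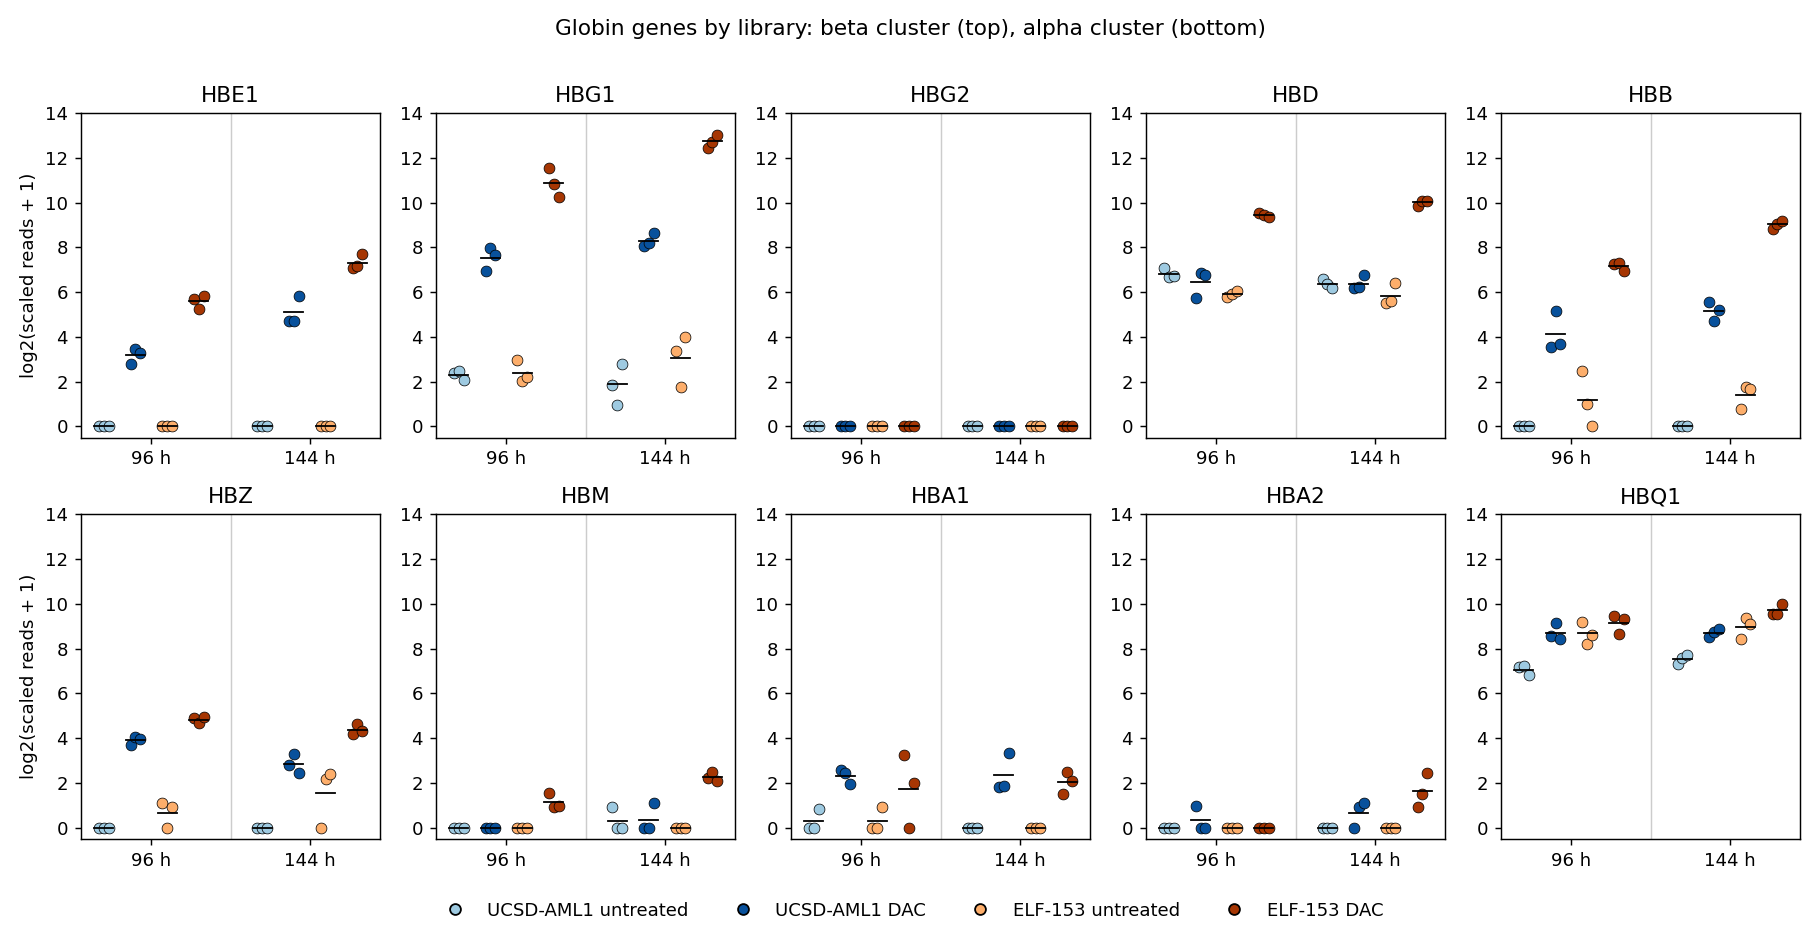
Scaled reads of the 10 globin genes on a log2(scaled reads + 1) axis, 1 point per library and a bar at the mean of the 3 libraries of a group, at 96 h and 144 h. HBG1 has its highest points in treated ELF-153 (1222 to 2951 and 5616 to 8344 scaled reads), HBD is raised only in treated ELF-153, and HBG2 lies at 0 throughout.

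HBG1 encodes the A-gamma chain of fetal haemoglobin and, like its paralog HBG2, belongs to the genes that DAC is known to induce. At 96 h the UCSD-AML1 libraries gave 4.19, 4.58 and 3.15 scaled reads of HBG1 without the drug, and 121, 247 and 198 with it. For ELF-153 the 3 libraries without the drug gave 6.72, 3.07 and 3.65, and those with it 2951, 1795 and 1222. The treated and untreated libraries did not overlap in either line, and every treated ELF-153 library lay above every treated UCSD-AML1 library.

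HBG1 rose by 5.2 ± 0.36 (SE) on the log2 scale in UCSD-AML1 (limma, adjusted p = 1.62e-07), from 3.98 ± 0.739 to 189 ± 63.7 scaled reads (SD, n = 3). In ELF-153 it rose by 8.47 ± 0.36 (limma, adjusted p = 1.08e-09), from 4.48 ± 1.96 to 1989 ± 881. Ratios are of reads summed over the libraries of a group and divided by their summed size factors, and not of group means. The ratio was 455 in ELF-153, with a 95% interval of 266 to 854, and 47.5 (27.5 to 89.8) in UCSD-AML1. These exact intervals cover counting error only. The test of that difference between the lines is given with those of the other members.

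At 144 h HBG1 in UCSD-AML1 stood at 2.65, 0.959 and 5.96 without and 265, 293 and 401 with DAC. In ELF-153 it stood at 9.44, 2.37 and 14.9 without and 5616, 6718 and 8344 with the drug. Again no treated library overlapped an untreated one. The log2 changes were 6.42 ± 0.53 in UCSD-AML1 and 9.69 ± 0.53 in ELF-153 (limma, adjusted p = 2.19e-06 and 4.6e-08), with ratios of 105 (54.9 to 229) and 741 (516 to 1110).

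In order of level, HBG1 was lowest in the untreated groups, higher in treated UCSD-AML1 and highest in treated ELF-153 at both harvests. The untreated lines were neighbours that did not differ beyond their spread: the difference of ELF-153 from UCSD-AML1 was 0.09 ± 0.36 at 96 h (limma, adjusted p = 0.848) and 1.16 ± 0.53 at 144 h (adjusted p = 0.0835). The 144 h difference passed the threshold in 4 of 17 alternatives. These were DESeq2 (1.49, adjusted p = 0.0354) and the replicate numbers as a block (adjusted p = 0.0392). The others left out untreated ELF-153 replicate 2 (1.81, adjusted p = 0.00564) or untreated UCSD-AML1 replicate 3 (1.62, adjusted p = 0.0257).

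HBE1 encodes the embryonic epsilon chain. Its reads were at 0 in all 12 untreated libraries of both lines. With DAC, UCSD-AML1 held 5.9, 10.1 and 8.74 scaled reads at 96 h and 25.2, 25.4 and 56.3 at 144 h. ELF-153 held 51.1, 36.6 and 55.8, and 133, 141 and 208. Every treated library thus had reads, and the treated lines did not overlap at either harvest.

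Against a floor of 3 reads over an untreated group, HBE1 was at least 9.03-fold higher with DAC in UCSD-AML1 and at least 46.9-fold higher in ELF-153 at 96 h, and at least 34.0-fold and 166-fold higher at 144 h. limma called all 4 changes (3.18 ± 0.39, 5.59 ± 0.39, 5.09 ± 0.41 and 7.31 ± 0.41; adjusted p from 3.33e-08 to 2.65e-05), whose size depends on the pseudocount. All 177 HBE1 reads at 96 h and 597 of 598 at 144 h were assigned to 1 transcript, ENST00000380237. Only 43 bases of that transcript belong to no other annotated one, a stretch of 5′ UTR that lies 12019 to 12061 bases upstream of the coding start, on the side of the locus control region. The HBE1 values may therefore rest on few positions far from the coding exons, and whether the coding exons carried reads was not tested.

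HBB, the adult beta chain, was at 0 in all untreated UCSD-AML1 libraries and at 0 to 4.48 scaled reads in untreated ELF-153. Treated UCSD-AML1 held 10.8, 34.8 and 11.7 at 96 h and 45.4, 25.4 and 36.0 at 144 h. Treated ELF-153 held 150, 158 and 122, and 450, 528 and 586. All treated libraries exceeded all untreated ones, and treated ELF-153 exceeded treated UCSD-AML1.

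In UCSD-AML1, HBB was at least 20.3-fold higher with DAC at 96 h and at least 35.8-fold higher at 144 h, and the limma changes were 4.13 ± 0.59 and 5.16 ± 0.37 (adjusted p = 9.89e-05 and 4.13e-07). In ELF-153, HBB rose by 6.01 ± 0.59 and 7.62 ± 0.37 (limma, adjusted p = 3.47e-06 and 9.27e-09), from 1.84 ± 2.35 to 143 ± 18.6 scaled reads and from 1.74 ± 0.889 to 522 ± 68.6 (SD, n = 3). HBB reads fell on 4 transcripts, of which ENST00000335295, the main coding one, took 514 of 523 at 96 h and 1707 of 1722 at 144 h.

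HBD, the minor adult delta chain, had at least 44.3 scaled reads in every untreated library and responded to DAC in ELF-153 and not detectably in UCSD-AML1. At 96 h its scaled reads in UCSD-AML1 were 133, 101 and 103 without DAC and 52.1, 116 and 109 with it, ranges that overlap. In ELF-153 they were 53.8, 59.4 and 65.6 without and 739, 700 and 652 with the drug, with no overlap. The same picture held at 144 h. UCSD-AML1 had 96.4, 80.5 and 71.6 against 71.4, 73.5 and 106 with DAC, again overlapping, and ELF-153 had 44.3, 47.4 and 83.3 against 922, 1085 and 1078.

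HBD rose in ELF-153 by 3.53 ± 0.26 at 96 h and 4.17 ± 0.25 at 144 h (limma, adjusted p = 2.67e-07 and 6.28e-08), with ratios of 11.6 (9.97 to 13.6) and 18.1 (15.6 to 21.2). In UCSD-AML1 the log2 change was -0.35 ± 0.26 (adjusted p = 0.31) and 0.00 ± 0.25 (adjusted p = 1), with ratios of 0.822 (0.7 to 0.965) and 0.972 (0.815 to 1.16). The difference between these changes was 3.88 ± 0.37 at 96 h and 4.17 ± 0.36 at 144 h in favour of ELF-153 (limma interaction, adjusted p = 1.6e-05 and 8.48e-06). It kept its direction and its call in all 23 alternatives at each harvest.

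The HBD reads were assigned to 2 transcripts that are annotated with different starts. ENST00000380299 begins 165 bases upstream of the start of ENST00000292901, the shorter form, and has 210 bases of its own, 118 of them in that upstream stretch. It took 97.6% of HBD reads in untreated UCSD-AML1 at 96 h, 96.3% in treated UCSD-AML1, 97.2% in untreated ELF-153 and 93.2% in treated ELF-153; at 144 h the shares were 90.9%, 98.5%, 98.9% and 92.7%. The longer form held most HBD reads in all 8 groups. The shorter has 121 bases of its own, and 92 of the 210 of the longer lie outside the upstream stretch. Reads on shared bases may be lost, so these shares do not measure how much each start is used.

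Both forms rose in treated ELF-153. The longer one rose by 3.47 ± 0.27 and 4.08 ± 0.26 (96 h and 144 h; limma over single transcripts, adjusted p = 2.74e-07 and 5.06e-08), where 21.7% and 28.8% of single transcripts were called. The shorter, ENST00000292901, entered the test only through treated ELF-153, the group where it is high, and there rose by 4.14 ± 0.56 and 5.64 ± 0.68 (adjusted p = 7.82e-05 and 2.58e-05), from 1.66 ± 0.484 to 47.0 ± 13.6 scaled reads at 96 h and from 0.598 ± 0.545 to 75.4 ± 6.23 at 144 h. In UCSD-AML1, where 27.8% and 36.2% of transcripts were called, neither form was: the longer changed by -0.37 ± 0.27 and 0.10 ± 0.26 (adjusted p = 0.339 and 0.798) and the shorter by 0.07 ± 0.56 and -1.56 ± 0.68 (adjusted p = 0.945 and 0.0879). Between the treated lines, where 31.1% and 32.5% of transcripts were called, the shorter form was 3.66 ± 0.56 and 5.21 ± 0.68 higher in ELF-153 (adjusted p = 0.000128 and 4.19e-05). The line difference in the DAC effect, called for 14% and 19.4% of transcripts, was 3.84 ± 0.38 and 3.98 ± 0.36 for the longer form (adjusted p = 1.97e-05 and 1.09e-05) and 4.07 ± 0.80 and 7.2 ± 0.97 for the shorter (adjusted p = 0.00427 and 0.000287). Without treatment, where 46.7% and 43.4% of transcripts were called, the longer form was lower in ELF-153 at 96 h (-0.90 ± 0.27, adjusted p = 0.0133) and the shorter at 144 h (-1.99 ± 0.68, adjusted p = 0.0297). The shorter form's untreated difference at 144 h rests on 2 reads in ELF-153 against 23 in UCSD-AML1. Those UCSD-AML1 libraries held 1.193 to 14.15 scaled reads, and the call was lost with a pseudocount of 8 (-0.72, adjusted p = 0.0549). The same reads enter the shorter form's line difference of 7.2, which kept its call in all 4 alternatives. Whether the shorter form changed more than the longer was not tested.

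**Figure D2:**
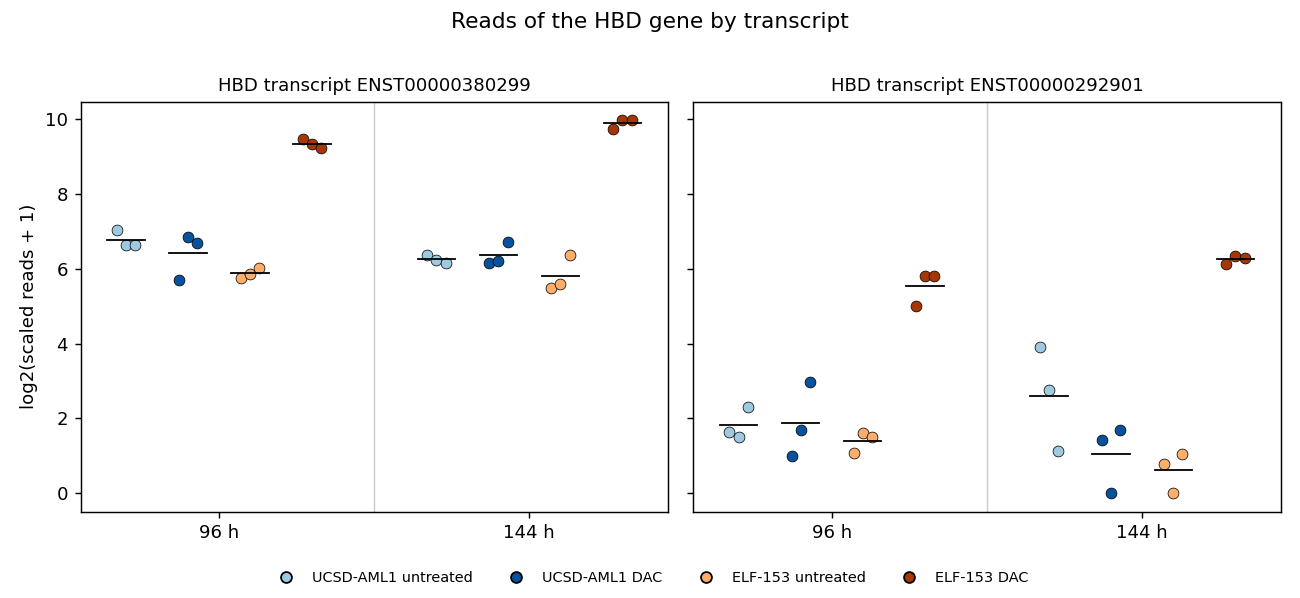
Scaled reads of the HBD transcripts ENST00000380299 (left) and ENST00000292901 (right) on a log2(scaled reads + 1) axis, 1 point per library and a bar at the group mean of 3. Treated ELF-153 stands above the other groups in both panels, at 597 to 1005 scaled reads for the longer form and 31.3 to 80.7 for the shorter.

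HBD and HBM were the 2 of 10 members matched in the RefSeq promoter table (GRCh38.p14). The 250 bases before the HBD start (chr11:5234484-5234733, minus strand) hold 2 CpG dinucleotides and 45.2% G and C; the median over 27305 promoters is 11 CpG, and 15.4% have fewer than HBD. On both strands and with overlaps kept, GATA, the core letters bound by GATA factors, is found at 3 places there, CCAAT once and CACCC nowhere; of all promoters, 46.5% hold GATA, 33.0% CCAAT and 53.7% CACCC. The upstream 85 bases, which no annotated HBD exon covers, are shown because the longer form starts just below them (chr11:5234649-5234733, minus strand, GATA in capitals).
HBD: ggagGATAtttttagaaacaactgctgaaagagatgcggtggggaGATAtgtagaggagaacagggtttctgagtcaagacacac

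HBM, which encodes a mu chain of the alpha cluster, has 27 CpG and 69.2% G and C in its 250 bases (chr16:165728-165977, plus strand), and 82.7% of promoters have fewer CpG. GATA, CACCC and TATAA, which 19.6% of promoters hold, are each found once. The last 120 bases are shown for contrast with HBD (chr16:165858-165977, plus strand, GATA and TATAA in capitals).
HBM: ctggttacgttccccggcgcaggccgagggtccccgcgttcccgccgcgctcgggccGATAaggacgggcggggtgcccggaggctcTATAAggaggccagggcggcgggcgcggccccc
These matches describe letters only, and methylation of either window was not measured here.

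HBZ encodes the embryonic zeta chain. At 96 h it was at 0 in untreated UCSD-AML1 and at 11.8, 15.7 and 14.6 scaled reads with DAC; in ELF-153 it was at 1.12, 0 and 0.911 untreated and 28.4, 24.4 and 29.4 with DAC. At 144 h UCSD-AML1 went from 0 in every library to 5.88, 8.75 and 4.5, and ELF-153 from 0, 3.55 and 4.27 to 17.4, 23.9 and 18.7. Treated and untreated libraries did not overlap within a line, and the level stayed low throughout.

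DAC left HBZ at least 15.4-fold higher in UCSD-AML1 at 96 h and at least 6.55-fold higher at 144 h. In ELF-153 the ratio was 40.5 (10.9 to 339) from 2 untreated reads at 96 h and 9.04 (4.14 to 23.4) at 144 h. limma called all 4 rises (3.90 ± 0.41 and 4.15 ± 0.41 at 96 h, 2.84 ± 0.57 and 2.85 ± 0.57 at 144 h; adjusted p from 3.7e-06 to 0.00147). The line difference in the DAC effect was 0.25 ± 0.58 and 0.01 ± 0.80 (adjusted p = 0.784 and 0.996). Its sign depended on the tool and the pseudocount.

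HBQ1 encodes theta globin, an alpha-cluster gene whose protein has no known place in haemoglobin, and it had 112 or more scaled reads in every library. At 96 h UCSD-AML1 held 142, 147 and 112 without and 372, 568 and 343 with DAC, with no overlap. The ELF-153 libraries had 591, 298 and 387 without and 692, 399 and 643 with it, which overlap. At 144 h neither line overlapped: UCSD-AML1 had 156, 188 and 206 against 371, 422 and 462, and ELF-153 346, 669 and 542 against 751, 751 and 1034.

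HBQ1 rose in UCSD-AML1 by 1.65 ± 0.28 at 96 h and 1.19 ± 0.24 at 144 h (limma, adjusted p = 0.000445 and 0.0014), from 133 ± 18.7 to 427 ± 122 scaled reads and from 183 ± 25.7 to 418 ± 45.7 (SD, n = 3). In ELF-153 the change was 0.46 ± 0.28 at 96 h (adjusted p = 0.231) and 0.74 ± 0.24 at 144 h (adjusted p = 0.0258). The 144 h call was lost without untreated ELF-153 replicate 1 (0.47, adjusted p = 0.0797), without treated ELF-153 replicate 3 (0.58, adjusted p = 0.113) and when only the compared groups were fitted (adjusted p = 0.0506).

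Untreated ELF-153 held more HBQ1 than untreated UCSD-AML1, by 1.62 ± 0.28 at 96 h and 1.46 ± 0.24 at 144 h (limma, adjusted p = 0.000269 and 0.000235). Within untreated ELF-153, HBQ1 was high where the mitochondrial rRNA share was low: 591, 298 and 387 scaled reads stood beside shares of 13.1%, 35.0% and 27.4% at 96 h, and 346, 669 and 542 beside 38.2%, 16.6% and 18.1% at 144 h. With that share as a covariate, the untreated difference at 96 h was 0.31 (adjusted p = 0.55) and the DAC change of ELF-153 at 96 h was 1.42 (adjusted p = 0.00204). The untreated difference at 144 h kept its call in all 18 alternatives, that covariate included, and its lowest value was 0.79.

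The remaining alpha-cluster members had few reads. HBA1, an adult alpha gene, had 1 read in untreated and 12 in treated UCSD-AML1 at 96 h and 0 and 14 at 144 h, a ratio of 13.5 (2.0 to 579) and at least 4.36-fold. In ELF-153 it had 1 and 12 reads, then 0 and 10. Of the treated ELF-153 reads, 11 and 9 were assigned to ENST00000487791, a transcript annotated as retaining an intron. The main coding transcript, ENST00000320868, had 1 at each harvest, and 9 of the 12 reads at 96 h came from 1 library. In treated UCSD-AML1 the main coding transcript held 11 and 10 reads. HBA2 had at most 7 reads in any group, and HBM had 4 reads at 96 h, all in treated ELF-153, and 12 of 14 at 144 h in that group, at least 4.08-fold above untreated ELF-153. With the minimum lowered to 1 scaled read, limma called HBA1 in UCSD-AML1 (2.05 ± 0.68, adjusted p = 0.0318, and 2.33 ± 0.50, adjusted p = 0.00234) and at 144 h HBA1, HBA2 and HBM in ELF-153 (2.03 ± 0.50, 1.62 ± 0.47 and 2.27 ± 0.46; adjusted p = 0.0062, 0.0163 and 0.00152). No untreated library of HBA1, HBA2 or HBM reached 1 scaled read. They passed the lowered minimum only through treated libraries, so these calls were in part fixed by the filter and are a description. The globins outside the clusters, MB, CYGB, NGB and ADGB, had no tested member.

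Between the treated lines at 96 h, 4 of 6 tested globin genes were higher in ELF-153, against 20.6% of all genes called higher, 21.9% lower and 42.5% in either direction: HBE1 by 2.41 ± 0.39, HBG1 by 3.36 ± 0.36, HBD by 2.99 ± 0.26 and HBB by 3.03 ± 0.59 (limma, adjusted p from 6.76e-07 to 0.000801). HBZ and HBQ1 differed by 0.92 ± 0.41 and 0.43 ± 0.28 (adjusted p = 0.0863 and 0.245). The HBB call at 96 h was lost with the mitochondrial rRNA covariate (1.81, adjusted p = 0.123). At 144 h all 6 were higher in treated ELF-153, against 29.7% higher and 44.2% in either direction: HBG1 by 4.43 ± 0.53, HBB by 3.87 ± 0.37, HBD by 3.63 ± 0.25, HBE1 by 2.22 ± 0.41, HBZ by 1.53 ± 0.57 and HBQ1 by 1.00 ± 0.24. The HBZ difference (adjusted p = 0.0427) was lost in 10 of 15 alternatives, among them leaving out any of the 3 treated UCSD-AML1 libraries (1.34 to 1.76), and the HBQ1 difference (adjusted p = 0.00393) with TMM scaling (0.62, adjusted p = 0.057).

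Between the untreated lines, 2 of the 6 tested members were called at 96 h, against 57.5% of all genes (22.8% higher, 34.7% lower): HBQ1 was higher and HBD lower in ELF-153 (-0.90 ± 0.26, adjusted p = 0.0101). At 144 h 3 were called, against 51.8% of all genes (28.9% higher): HBQ1, HBB (1.40 ± 0.37, adjusted p = 0.00671) and HBZ (1.53 ± 0.57, adjusted p = 0.0379), all higher in ELF-153. The untreated HBB and HBZ values rest on 5 and 7 ELF-153 reads against 0 in UCSD-AML1, and the HBB call was lost with DESeq2 (adjusted p = 0.0545), a pseudocount of 8 (0.28, adjusted p = 0.301) and the mitochondrial rRNA covariate (0.90, adjusted p = 0.256). The HBZ call was lost in 9 of 17 alternatives, among them leaving out any untreated UCSD-AML1 library (1.53 each time) or untreated ELF-153 replicate 2 or 3 (1.20 and 1.09). HBD, called lower at 96 h, lost its call with TMM scaling in limma (-0.62, adjusted p = 0.0532) and with the mitochondrial rRNA covariate (-0.82, adjusted p = 0.253). At 144 h HBD was -0.55 ± 0.25 (adjusted p = 0.0872). That difference was called with TMM scaling in limma (-0.70, adjusted p = 0.0343), with edgeR TMM (-0.67, adjusted p = 0.0471) and with the covariate (-0.97, adjusted p = 0.0413). It was also called without untreated ELF-153 replicate 3 (-0.83, adjusted p = 0.0138). HBB at 96 h (1.16 ± 0.59, adjusted p = 0.108) was called with DESeq2 (3.61, adjusted p = 0.0201). It was also called without untreated ELF-153 replicate 3 of that harvest (1.74, adjusted p = 0.0214).

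The test of the line difference in the DAC effect called 4 of 6 members at each harvest, against 25% of genes at 96 h (16.4% higher in ELF-153, 8.62% lower) and 29.6% at 144 h (19.4% higher). HBG1 changed more in ELF-153 by 3.26 ± 0.51 and 3.27 ± 0.75 (limma interaction, adjusted p = 0.000714 and 0.00909), as did HBD above. HBE1 differed by 2.41 ± 0.55 and 2.22 ± 0.58 (adjusted p = 0.0075 and 0.0155) and HBB by 1.88 ± 0.83 and 2.47 ± 0.52 (adjusted p = 0.113 and 0.00539). HBB at 96 h was called without untreated ELF-153 replicate 1 (2.53, adjusted p = 0.0244). For HBE1 and HBB the untreated UCSD-AML1 groups had 0 reads, so the difference of fold changes is not fixed by the data: with edgeR the HBE1 differences had an adjusted p of 1 and the HBB values turned negative. HBE1 also had 0 reads in untreated ELF-153. Its line differences of 2.41 and 2.22 therefore repeat the differences between the treated lines and are no separate result. HBQ1 differed the other way at 96 h (-1.19 ± 0.40, adjusted p = 0.0439), a call lost in 10 of 23 alternatives and without each of 9 of the 12 libraries of that harvest (-0.92 to -1.28, adjusted p = 0.0568 to 0.114), and by -0.45 ± 0.34 at 144 h (adjusted p = 0.317).

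Other scalings moved the median of all genes by up to 0.15 and 0.21 for DAC in UCSD-AML1 (96 h and 144 h), 0.3 for the untreated lines at 96 h, -0.38 for the treated lines at 144 h, and -0.21 and -0.24 for the line differences. With edgeR's TMM the share of calls that were higher went from 43.3% to 54.2% for UCSD-AML1 at 144 h, from 39.7% to 52% for the untreated lines at 96 h, from 67.2% to 46.4% for the treated lines at 144 h, and from 65.6% to 51.3% and from 65.6% to 47.9% for the line differences.

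Genes next to the globin genes were compared from a fixed list of neighbours. On the beta side 4 of 18 listed genes could be tested. BGLT3, a noncoding RNA gene between the gamma genes and HBBP1, was at 0 in every untreated library and rose in both lines, at least 15-fold and 54.6-fold at 96 h (UCSD-AML1 and ELF-153) and at least 9.04-fold and 151-fold at 144 h (limma, adjusted p from 2.4e-07 to 0.000469), and like HBG1 it was tested only through treated libraries. HBBP1, a pseudogene beside HBD, rose in ELF-153 by 4.50 ± 0.29 and 5.57 ± 0.43 (adjusted p = 6.21e-08 and 5.53e-07), from 9.33 ± 1.55 to 235 ± 57.5 and from 10.2 ± 6.0 to 467 ± 56.2 scaled reads, while in UCSD-AML1 it changed by 0.70 ± 0.29 and 0.77 ± 0.43 (adjusted p = 0.0694 and 0.16), with ratios of 1.68 (1.21 to 2.36) and 1.79 (1.23 to 2.62) where HBD had 0.822 and 0.972. The HBBP1 line difference was 3.80 ± 0.41 and 4.80 ± 0.61 (limma interaction, adjusted p = 4.26e-05 and 0.000195).

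UBQLNL, a ubiquilin-like gene beyond the olfactory receptor genes that flank the cluster, rose in both lines (2.76 ± 0.52 and 3.02 ± 0.52 at 96 h, 2.47 ± 0.43 and 3.64 ± 0.43 at 144 h; limma, adjusted p from 2.34e-05 to 0.000871), and TRIM6 was not called. On the alpha side, where 8 of 13 listed genes were tested at 96 h and 7 at 144 h, 1 was higher (AXIN1) and 2 lower (POLR3K and SNRNP25) in UCSD-AML1 at 96 h, and 1 higher (LUC7L) and 1 lower (POLR3K) in ELF-153. At 144 h the calls were 2 that were lower in ELF-153 (POLR3K and MPG). These shares are near or below those of all genes (39.2% and 32.7% at 96 h, 46.1% and 38.4% at 144 h). POLR3K, a subunit of RNA polymerase III, had the largest of these changes (-1.40 ± 0.21 in ELF-153 at 144 h, adjusted p = 0.000163). NPRL3, which holds the alpha-globin enhancers in its introns, was not called (0.74 ± 0.40 and -0.54 ± 0.40 at 96 h, 0.83 ± 0.54 and -0.07 ± 0.54 at 144 h).

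**Figure D3:**
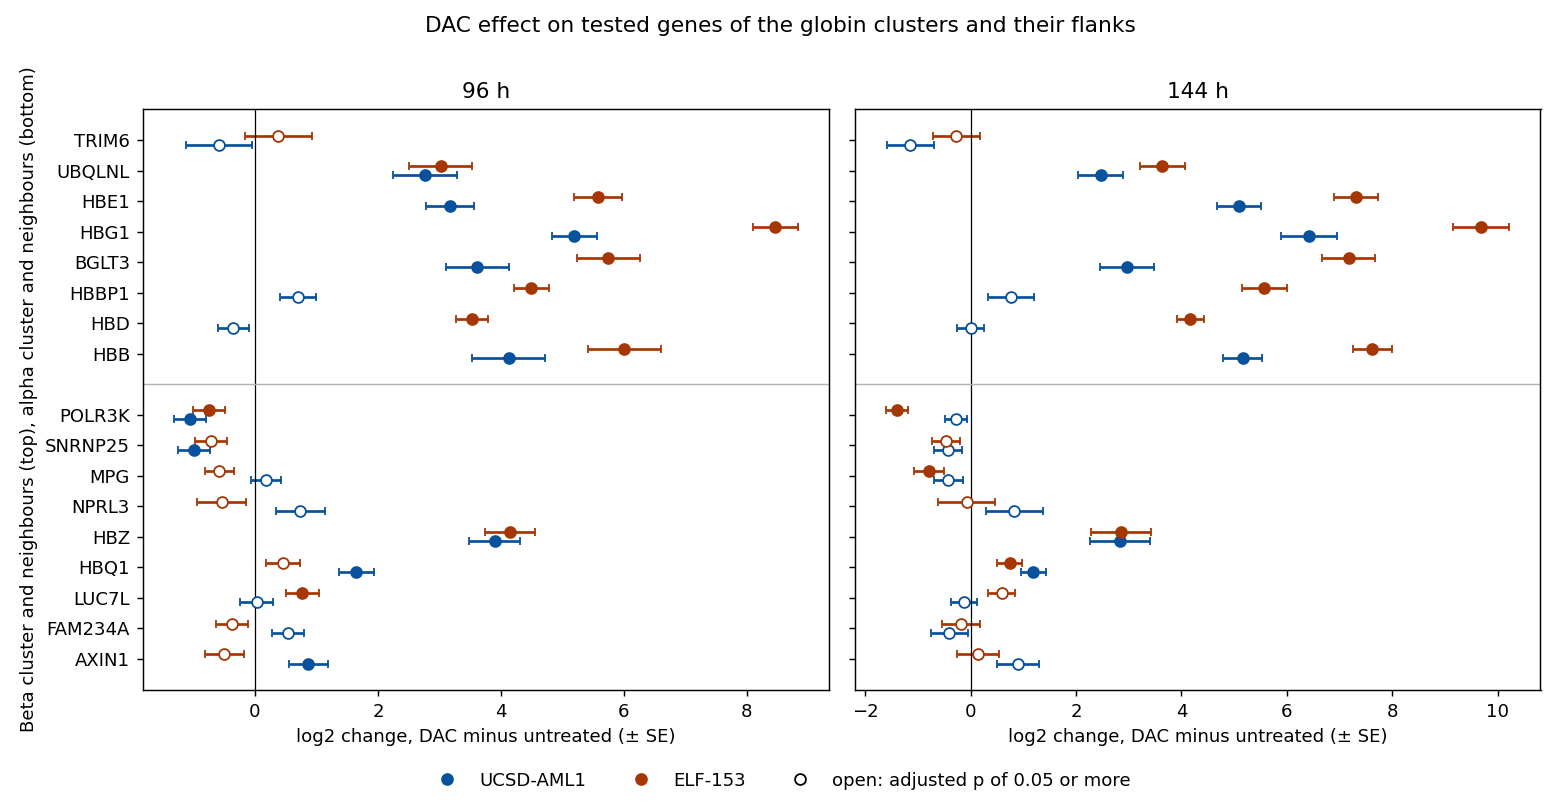
log2 change with DAC (treated minus untreated, bars are SE) for genes tested at both harvests, of the beta cluster and its neighbours (above the line) and of the alpha cluster and its neighbours (below), in UCSD-AML1 and ELF-153; open points have an adjusted p of 0.05 or more. HBD and HBBP1 are called in ELF-153 and not in UCSD-AML1, while HBE1, HBG1, BGLT3 and HBB are called in both lines.

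Regulators of the globin genes were read from 2 fixed lists. Of 11 tested activators, 7 were higher and 1 lower in UCSD-AML1 at the 96 h harvest, and 8 and 0 in ELF-153; at 144 h the counts were 7 and 1, and 9 and 0. Of all genes 19.7% were higher and 19.6% lower in UCSD-AML1 and 20.1% and 12.7% in ELF-153 at 96 h, and 20% and 26.2%, and 20.4% and 18%, at 144 h. Their median change was 0.94 and 1.20 at 96 h and 0.96 and 1.42 at 144 h. GATA1, the erythroid and megakaryocytic GATA factor, rose from 400 ± 18.4 to 1635 ± 154 scaled reads in UCSD-AML1 at 96 h (2.03 ± 0.24, limma, adjusted p = 1.84e-05) and from 32.5 ± 14.6 to 980 ± 113 in ELF-153 (4.95 ± 0.24, adjusted p = 3.11e-09). At 144 h it rose by 1.83 ± 0.33 and 5.22 ± 0.33.

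KLF1, the erythroid Krüppel-like factor that activates HBB, had 1.31 ± 1.64 scaled reads in untreated UCSD-AML1 at 96 h and 380 ± 88.8 with DAC, and 155 ± 18.9 and 1455 ± 431 in ELF-153. Its change was larger in UCSD-AML1 (7.58 ± 0.40 against 3.18 ± 0.40 at 96 h, 5.25 ± 0.28 against 3.36 ± 0.28 at 144 h), opposite in sign of difference to HBG1 and HBD (-4.40 ± 0.57, limma interaction, adjusted p = 0.000175, and -1.89 ± 0.39, adjusted p = 0.005). LIN28B, an RNA-binding protein of the fetal programme, had 0 to 2 reads per UCSD-AML1 group, and in ELF-153 went from 1 to 160 reads at 96 h (ratio 147, 26.0 to 5850) and from 3 to 132 at 144 h (ratio 44.9, 15 to 221). LIN28B passed the minimum only through treated ELF-153, which in part fixed its calls. The LIN28B line difference was 5.86 ± 0.68 and 4.19 ± 0.70 (adjusted p = 7.47e-05 and 0.00131). ZFPM1, the GATA1 cofactor FOG1, rose in both lines (1.67 ± 0.24 and 1.62 ± 0.24 at 96 h, 1.74 ± 0.34 and 2.20 ± 0.34 at 144 h). LMO2, a partner of GATA1 in the erythroid complex, fell by 0.75 and 1.16 on the log2 scale in UCSD-AML1 and rose by 1.69 and 1.35 in ELF-153.

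Among 21 tested repressors and corepressors, 2 were higher and 8 lower in UCSD-AML1 at 96 h and 0 and 5 in ELF-153; at 144 h the counts were 5 and 9, and 1 and 6. Of all genes 39.2% and 32.7% were called at 96 h and 46.1% and 38.4% at 144 h. In either direction, the 96 h counts and that of ELF-153 at 144 h are near or below these shares. These counts are no result about repressors. Of all genes 19.6% and 12.7% were called lower at 96 h, and 26.2% and 18% at 144 h. The counts of lower repressors stand above these shares in each comparison, and whether the list differs from all genes was not tested. The median change was -0.46 and -0.20 at 96 h and -0.32 and -0.30 at 144 h. BCL11A, the main gamma-globin repressor, fell in UCSD-AML1 by 1.48 ± 0.38 and 2.20 ± 0.47 on the log2 scale (limma, adjusted p = 0.00741 and 0.00232), from 248 ± 43.1 to 89.2 ± 22.6 and from 168 ± 61.5 to 39.1 ± 22.0 scaled reads. In ELF-153 it changed by -0.84 ± 0.38 (adjusted p = 0.108) and fell by 1.33 ± 0.47 at 144 h (adjusted p = 0.0395), and the line difference was 0.64 ± 0.54 and 0.86 ± 0.67 (adjusted p = 0.406 and 0.336).

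ZBTB7A, which also represses the gamma genes, was not called in any DAC comparison (0.07 ± 0.20 and -0.42 ± 0.20 at 96 h, 0.30 ± 0.24 and 0.06 ± 0.24 at 144 h). MYB, a progenitor factor, was called in UCSD-AML1 at 144 h (-1.44 ± 0.51, adjusted p = 0.0348), while the other values were -0.95, 0.26 and -0.32 (UCSD-AML1 96 h, ELF-153 96 h and 144 h). DNMT1, the maintenance methyltransferase that DAC traps, fell in both lines at both harvests (-1.12 ± 0.19 and -1.27 ± 0.19 at 96 h, -0.69 ± 0.23 and -0.93 ± 0.23 at 144 h). BACH1, a haem-responsive repressor, rose in UCSD-AML1 at both harvests (1.03 ± 0.19 and 0.92 ± 0.20) and in ELF-153 at 144 h (0.88 ± 0.20). The other calls that were higher were GATAD2A in UCSD-AML1 at both harvests and CHD4, EHMT1 and RCOR1 there at 144 h. MBD2 and HDAC2, parts of corepressor complexes that read methylated DNA or remove acetyl groups from histones, fell in UCSD-AML1 at 96 h (-1.57 ± 0.48 and -1.61 ± 0.40) and 144 h (-2.10 ± 0.51 and -1.78 ± 0.33). MBD3 fell in ELF-153 (-0.80 ± 0.20 and -1.32 ± 0.20).

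**Figure D4:**
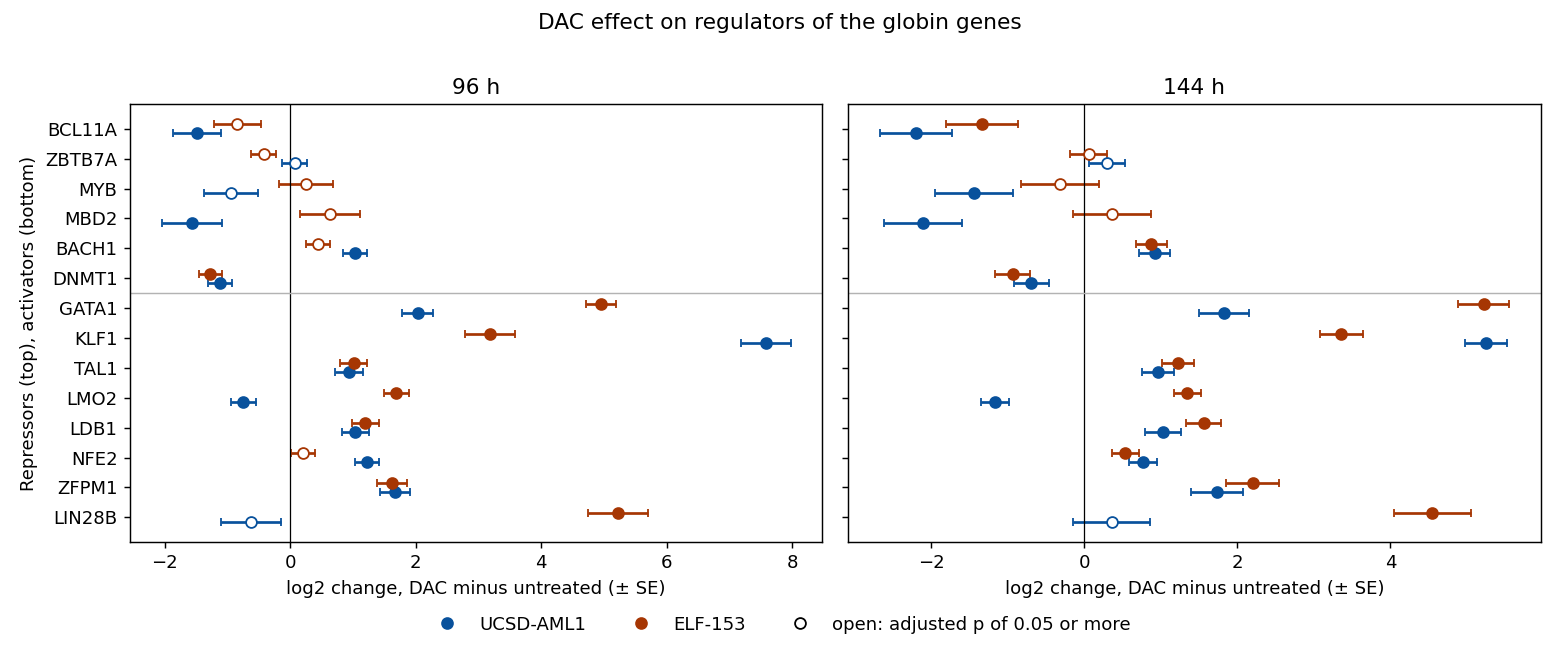
log2 change with DAC (treated minus untreated, bars are SE) for 6 repressors (above the line) and 8 activators (below) in both lines at 96 h and 144 h; open points have an adjusted p of 0.05 or more. GATA1 and KLF1 are called higher in both lines, LIN28B is called in ELF-153 (line difference 5.86 and 4.19), and BCL11A lies below 0 throughout.

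Genes for haem synthesis, the globin chaperone and the red cell membrane were counted from another list. Of 17 tested, 7 were higher and 1 lower in UCSD-AML1 and 8 and 1 in ELF-153 at 96 h; at 144 h the counts were 5 and 3, and 9 and 0. All genes gave 39.2% and 32.7% called at 96 h and 46.1% and 38.4% at 144 h, close to the 8 of 17 of UCSD-AML1 at 144 h. Those called lower were TFRC in UCSD-AML1 and ALAS1 in ELF-153 at 96 h, and CPOX, FECH and SLC25A37 in UCSD-AML1 at 144 h. RHAG, a membrane protein of the Rh complex, rose in ELF-153 from 5.31 ± 3.82 to 548 ± 77.3 scaled reads at 96 h (6.72 ± 0.43, limma, adjusted p = 5.43e-08), and in UCSD-AML1 was 2949 ± 425 and 5380 ± 947 (0.86 ± 0.43, adjusted p = 0.126). SLC4A1, the band 3 anion exchanger, rose by 1.26 ± 0.42 and 5.41 ± 0.42 at 96 h (UCSD-AML1 and ELF-153) and 2.75 ± 0.49 and 7.34 ± 0.49 at 144 h. CPOX, an enzyme of haem synthesis, rose in ELF-153 by 2.23 ± 0.24 and 2.47 ± 0.24, while in UCSD-AML1 it changed by -0.28 ± 0.24 and then fell by 0.97 ± 0.24 on the log2 scale (adjusted p = 0.384 and 0.0056).

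Both AHSP, which stabilises free alpha chains, and ALAS2, the erythroid enzyme that starts haem synthesis, are defining red cell genes that stayed near 0 and were not tested. AHSP had at most 12 reads in any group and ALAS2 at most 7, each highest in a treated group.

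HBG1 and HBQ1 had the most scaled reads of their clusters, a choice rule and not a ranking of expression, and for these the genes with the most similar pattern were listed as a description, over 16782 genes and the 12 libraries of each harvest, which share the line and treatment groups and their depth. Closest to HBG1 by the lower of the 2 Pearson r were PAGE2B (0.988 and 0.986), TSPYL6 (0.987 and 0.985), MAGEB10 (0.984 and 0.983) and SYCE1 (0.983 and 0.986), several of them known as germline genes. Among the members, r with HBG1 was 0.993 and 0.977 for HBE1, 0.973 and 0.983 for HBB, 0.973 and 0.897 for HBZ, 0.794 and 0.839 for HBD and 0.667 and 0.74 for HBQ1. Closest to HBQ1 were FTL, the ferritin light chain (0.968 and 0.971), CNNM4, IRF2BP2, CST3 and MIGA2.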

How the data were processed

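RNA of 24 libraries was depleted of ribosomal RNA, prepared with a stranded kit and read from both ends, per the labels' protocols. TopHat2, STAR, HTSeq, DESeq2, FastQC and the hg19 build appear in the submitters' processing notes; their versions, their roles and the counting rule are not given in the sources used here. The deposited signal values are reads per transcript divided by 1 size factor per library, scaled within each harvest; 100% of values were whole multiples of a library's step within 0.01, so reads could be recovered.

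Transcripts were summed to genes by GENCODE 29 identifiers (181859 of 204940 matched, 88.7%), and unmatched transcripts were tested alone. That release is on GRCh38, so no gene coordinates are printed from it. Log2(gene sum + 1) was tested by limma 3.58.1 (R 4.3.3), with 1 mean per group, all 12 libraries of a harvest in the fit, and trended, robust empirical Bayes variances. A gene entered if 3 or more libraries reached 10 scaled reads; there were 10 comparisons, each Benjamini-Hochberg adjusted over all genes. edgeR 4.0.16 and DESeq2 1.42.0 on recovered reads were alternatives, with TMM scaling, pseudocounts 0.5 and 8, other filters, a replicate block, coding transcripts only, the compared groups only and each library left out. A mitochondrial rRNA covariate was added after seeing the data. Scripts were tested on simulated data. The plan assumed raw counts; since the values are scaled, limma took the place of edgeR.

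The correlation of deviations exceeded 0.1 for all same-numbered libraries in UCSD-AML1 at 144 h only (0.13, 0.12 and 0.26). Untreated replicate 2 with treated replicate 1 also gave 0.13 there, so the numbers do not clearly pair the libraries. The members and gene lists were chosen with earlier results of these data known. Named genes were all members, their tested transcripts, a fixed set of regulators, up to 4 genes per list with the smallest adjusted p, and the 5 most similar to HBG1 and HBQ1; some are left out for length, and some are not reported here. Bounds use a floor of 3 reads over a group, intervals are 95%, and the table of repeat elements was not used here. Tables came from pandas 2.3.3, scipy 1.17.1 and numpy 2.4.6, and figures from matplotlib 3.10.9, all under Python 3.11.15.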

Additional observations from a re-analysis of the deposited data

Results flagged for a closer look

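The DAC effect differed between the lines by the limma interaction test (ELF-153 minus UCSD-AML1, log2 scale) for 5 globin genes. HBD differed by 3.88 at 96 h and 4.17 at 144 h, and HBG1 by 3.26 and 3.27. HBE1 differed by 2.41 and 2.22, and HBB by 2.47 at 144 h. HBQ1 differed by -1.19 at 96 h. For HBE1 and HBB the untreated UCSD-AML1 libraries held 0 reads, and the HBQ1 call was lost in 10 of 23 alternatives. HBE1 held 0 reads in untreated ELF-153 too, so its values repeat the differences between the treated lines.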

How the results depend on the processing

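Of 427 values of single members for a DAC effect under the alternatives, 422 kept direction and side of the threshold; for the line differences it was 233 of 273. Counts over all genes moved by over 1.5 times with the mitochondrial rRNA covariate, chosen after seeing the data: 3613 (DAC in ELF-153, 96 h), 4785 and 6086 (untreated lines, 96 h and 144 h) and 2601 (line difference, 144 h), against 6152, 10810, 9467 and 5408. Leaving out single libraries gave 2915 to 7298 genes for that last comparison. The count moved by over 1.5 times without untreated UCSD-AML1 replicate 1 or 2, untreated ELF-153 replicate 2 or 3, or treated ELF-153 replicate 2 (3346, 3526, 3416, 3284 and 2915). Globin genes called in the untreated lines numbered 1 with TMM scaling and 0 with the covariate at 96 h, against 2, and 1 with a pseudocount of 8 or the compared groups only at 144 h, against 3. In the line difference at 144 h 2 were called with edgeR TMM, edgeR RLE and DESeq2, against 4.

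Reversed directions were as follows, and the cause was not tested. With edgeR TMM, edgeR RLE and DESeq2 the line difference at 96 h was -1.03, -1.04 and -0.62 for HBB and -1.78, -1.79 and -1.22 for HBZ; at 144 h it was -0.25 and -0.19 (edgeR) for HBB and -3.02, -2.98 and -2.29 for HBZ. TMM scaling in limma gave -0.28 for HBZ at 144 h. A pseudocount of 0.5 gave -0.12 at 96 h and -0.48 at 144 h, for both the HBZ gene and its transcript ENST00000252951. The covariate gave -1.11, -0.41 and -0.27 for HBG1, HBB and HBZ between untreated lines at 96 h, -0.59 for HBQ1 between treated lines at 96 h and 0.10 for its line difference at 144 h. Leaving out 1 library gave 0.01 for HBD in UCSD-AML1 at 96 h (range -0.56 to 0.01), -0.18 to 0.28 for HBG1 between untreated lines at 96 h, and -0.09 to 0.45 and -0.76 to 0.44 for the HBZ line difference.

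The replicate block changed 1 member call, HBG1 between untreated lines at 144 h (1.16, adjusted p = 0.0392), and no other. Correlations of same-numbered libraries did not all exceed 0.1 in ELF-153 at 144 h (-0.23, -0.31, 0.16), UCSD-AML1 at 96 h (-0.07, 0.02, -0.05) or ELF-153 at 96 h (0.29, 0.32, -0.04). HBA1, HBA2 and HBM had too few reads for the main filter, and HBG2 had 0 reads under every setting.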
